A study of Mus musculus with 22 samples.

Results

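Genes of cholesterol and fatty acid synthesis were followed in mouse myeloid cells with and without VISTA, an inhibitory immune checkpoint protein encoded by Vsir. The 33 genes were chosen by name, with earlier results of these data known. They were found by symbol in the deposited count tables, which hold 23912 genes for normoxia cultures, 33265 for hypoxia cultures and 24251 for tumor samples, or 35255 different genes in all. All 33 were listed in all 3 tables, and all 33 passed the filter on low counts in each. They fall into 17 enzymes of the mevalonate and sterol pathway, 6 regulators and sterol transport genes, 3 enzymes that turn citrate into fatty acids, and 7 desaturases and elongases.

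The RNA came from 22 libraries in 6 groups. Bone marrow myeloid progenitors of wild-type (WT) and VISTA knockout (KO) mice were grown with GM-CSF and IL-6, cytokines that drive the formation of myeloid-derived suppressor cells, and sampled in normoxia at day 4 (4 WT and 4 KO libraries). The hypoxia cultures were sampled at 24 hours (4 WT and 4 KO), and MC38 tumors, which grow from a mouse colon carcinoma line, at day 7 (3 WT and 3 KO). The cytokines, the purification of the suppressor cells and the independence of the replicates are stated for the normoxia cultures and for no other group, so elsewhere the p-values measure the spread between libraries, which may be technical. All groups share the C57BL/6N background, and no label says how the knockout was made or in which cells. The tumor samples are labelled as tumor tissue, while the name of their count table speaks of suppressor cells.

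Cholesterol is built from acetyl-CoA through mevalonate, squalene and lanosterol. Fatty acids are built from acetyl-CoA that is released from citrate, and are then lengthened and desaturated. Most of these genes are targets of the SREBP transcription factors, which are encoded by Srebf1 and Srebf2. The SREBP proteins are escorted from the endoplasmic reticulum by SCAP when sterols are low and are held back there by the INSIG proteins when sterols are high. In myeloid cells, as elsewhere, these pathways supply the lipids of membranes.

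Depth was even within the cultures (23409142 to 23722932 counts a library in normoxia, 30839108 to 31385825 in hypoxia). For tumors it moved with genotype, with 27452024 to 31716200 counts for WT and 19119985 to 23089943 for KO. Vsir was lower in every KO library than in every WT library of its experiment, at 130 to 231 against 620 to 795 CPM (counts scaled to the library size) in normoxia, 114 to 167 against 527 to 617 CPM in hypoxia, and 119 to 131 against 455 to 504 CPM in tumors. Markers of granulocytes, summed over 12 genes, stood at 32444 to 42786 CPM in WT and 45356 to 67317 CPM in KO normoxia cultures, and in hypoxia at 26454 to 36167 CPM for WT and 54715 to 66697 CPM for KO. Summed over 9 genes, macrophage markers stood at 7612 to 9528 CPM in tumor libraries and at 700 to 1572 CPM in cultures. Dendritic cell markers, summed over 10 genes, reached 6004 to 8072 CPM in WT tumors and 10036 to 13921 CPM in KO tumors. The granulocyte genes Camp and Ngp were at or near 0 in the tumor libraries, Ly6g reached no more than 0.172 CPM, and the epithelial marker Epcam no more than 0.724 CPM, while 6 epithelial markers summed to 17.5 to 60.5 CPM in tumors. Other genes of the granulocyte list were present in tumors, with Csf3r at 235 to 352 CPM, Cd177 at 86.1 to 138 CPM and Mmp8 at 38.2 to 48 CPM, and the whole list summed to 389 to 422 CPM in WT and 474 to 527 CPM in KO tumors.

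The sterol branch is known to be read through short motifs close to the start of its genes, so the sequence upstream of the start is shown for 5 members that differed in a comparison described further on or that carry the rarest motif. RefSeq (GRCm38.p6) gave a promoter window for 26 of the 33 genes, and the other members are Scd1, Scd2, Stard4, Fads1, Fdft1, Fdps and Sqle. In the 250 bases before the start, on both strands, CCAAT, a motif bound by NF-Y, was found in 60% of the 35 windows of the members and in 33.8% of all 32851 windows. GGGCGG, bound by SP1, was found in 71.4% and 32.7%, but in 54.2% of the windows of tested genes. CACGTG, an E-box of the kind SREBP1 can bind, was found in 17.1% and 6.02%. The sterol response element TCACNCCAC was found in 1 gene, Hmgcs1, and in 1.05% of all windows. In the 5 windows shown, no marked match overlaps another. The lines below run 5′ to 3′ on the strand of the gene and stop before the annotated transcript start, and capitals mark the matches: TCACNCCAC and CCAAT in Hmgcs1, CACGTG and CCAAT in Insig1, GGGCGG in Cyp51 and Acat2, and CCAAT in Ebp. GGGCGG also occurs in the windows of Hmgcs1, Insig1 and Ebp, where it is left in lower case, and ATTGG and CCGCCC are the same motifs read on the other strand. The Insig1, Cyp51 and Acat2 lines are cut to 201, 201 and 228 bases. Their annotated gene start lies upstream of the RefSeq start from which the 250 bases were counted. CCAAT was also found for Cyp51, in bases that are not printed.
Hmgcs1: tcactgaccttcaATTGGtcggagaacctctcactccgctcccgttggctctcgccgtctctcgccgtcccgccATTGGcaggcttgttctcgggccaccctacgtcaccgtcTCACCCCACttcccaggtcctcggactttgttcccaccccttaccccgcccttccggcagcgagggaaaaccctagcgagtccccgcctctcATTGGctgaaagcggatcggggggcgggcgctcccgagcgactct
Insig1: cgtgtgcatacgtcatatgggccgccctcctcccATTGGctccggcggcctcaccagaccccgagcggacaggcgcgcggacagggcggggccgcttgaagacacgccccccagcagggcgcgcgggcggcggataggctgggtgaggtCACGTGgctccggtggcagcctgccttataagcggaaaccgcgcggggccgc
Cyp51: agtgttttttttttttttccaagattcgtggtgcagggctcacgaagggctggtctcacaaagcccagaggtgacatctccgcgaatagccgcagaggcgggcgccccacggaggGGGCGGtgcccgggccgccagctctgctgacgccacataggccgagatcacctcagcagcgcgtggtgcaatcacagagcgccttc
Ebp: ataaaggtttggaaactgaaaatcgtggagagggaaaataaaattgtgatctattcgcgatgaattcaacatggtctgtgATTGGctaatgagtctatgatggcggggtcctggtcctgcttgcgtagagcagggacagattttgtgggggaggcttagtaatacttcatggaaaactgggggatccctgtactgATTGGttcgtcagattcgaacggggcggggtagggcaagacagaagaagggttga
Acat2: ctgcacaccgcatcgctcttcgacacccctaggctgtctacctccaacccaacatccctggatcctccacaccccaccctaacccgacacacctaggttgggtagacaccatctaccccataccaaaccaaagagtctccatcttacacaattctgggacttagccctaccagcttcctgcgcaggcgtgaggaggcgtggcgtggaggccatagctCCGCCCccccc
The windows lie at chr13:119690101-119690350 (plus strand) for Hmgcs1, chr5:28071162-28071362 (plus strand) for Insig1, chr5:4104747-4104947 (minus strand) for Cyp51, chrX:8193513-8193762 (minus strand) for Ebp and chr17:12960748-12960975 (minus strand) for Acat2. The element of Hmgcs1 begins 137 bases before the RefSeq start and its CCAAT boxes 237, 176 and 45 bases before it. In Insig1 the E-box begins 101 bases before the RefSeq start, which lies downstream of the end of the printed line. A match is a run of letters and was not tested for binding.

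Levels differed widely among the members. Compared per length, as RPKM (CPM divided by the exon length in kilobases), the highest in WT normoxia cultures was Scd2, a stearoyl-CoA desaturase gene, at 234 ± 21.5 RPKM (SD, n = 4). Acly, the citrate lyase gene, followed at 109 ± 5.14 RPKM and Mvd, of the mevalonate branch, at 78 ± 7.11 RPKM. The ranges of these 3 did not overlap with one another, nor did that of Mvd with the next. From rank 4 (Fads2, 61.8 RPKM) downward most neighbours in the order overlapped. The lowest were Scap (3.72 ± 0.43 RPKM) and Insig2 (3.09 ± 0.32 RPKM). In WT tumor libraries the order opened with Acly (141 ± 16.8 RPKM, n = 3) and Elovl1 (33.2 ± 3.01 RPKM).

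Most of the members were lower in tumors than in culture. In 29 of the 33 genes every tumor library was lower than every culture library, where 27.2% of 16561 tested genes lay lower and 27.5% higher in the same way. Scd1 stood at 163 to 203 CPM in WT normoxia cultures and at 2.76 to 3.65 CPM in WT tumor libraries, a ratio of the means of 54.6. Fads2 and Fasn, the fatty acid synthase gene, had ratios of 28.8 and 21.2, and Stard4, which carries sterol between membranes, 16.9. Insig2 went the other way, with 9.54 to 14.9 CPM over the 16 culture libraries and 24.4 to 46.1 CPM over the 6 tumor libraries. Ebp, Srebf1 and Acly overlapped, and Ebp had nearly the same mean in WT normoxia cultures (55.9 CPM) and WT tumor libraries (53.9 CPM). The tables were counted separately and differ in tissue, time and cell content, so these levels were set side by side with no test. Proliferation markers, summed over 10 genes, moved with them, at 1436 to 2448 CPM in cultures and 141 to 147 CPM in tumors, and their part in these levels was not tested. In bulk samples, fewer cells of a type and less RNA per cell cannot be told apart. Fdps shares 1124 exon bases with Gm43738 on the same strand, so its reads may have been split or dropped, and its tumor level (0.532 to 1.23 CPM) is uncertain.

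**Figure D1:**
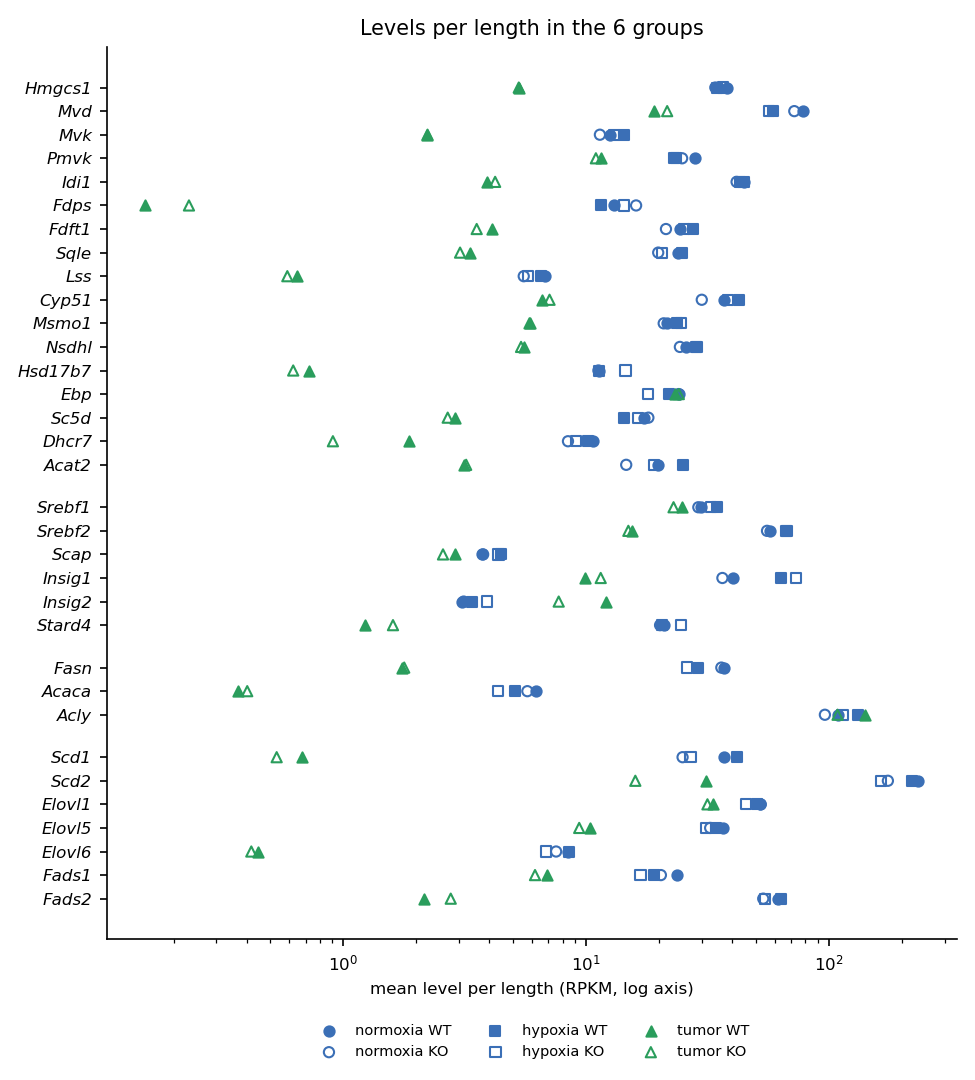
Mean level per length of the 33 genes in the 6 groups, in RPKM on a log axis, with genes ordered by role. Filled symbols are WT and open symbols KO, circles are normoxia, squares hypoxia and triangles tumor. Most triangles lie far left of the other symbols, those of Insig2 lie to the right, and those of Ebp and Acly lie among them.

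In normoxia a small set of the genes was lower in KO than in WT cultures, and none was higher by the test. A gene was called when the adjusted p of the edgeR quasi-likelihood test over all tested genes was under 0.05. By this measure 4 of 33 genes fell and 0 rose, where 4.17% of all 13950 tested genes fell and 7.13% rose. The 4 are the stearoyl-CoA desaturase genes Scd1 and Scd2, which make monounsaturated fatty acids, the lanosterol demethylase gene Cyp51, and Acat2, whose enzyme joins acetyl-CoA units at the entry of the mevalonate pathway. In 28 of 33 genes the log2 fold change of KO against WT was below 0, with a median of -0.14 against -0.02 for all genes. Of all tested genes 47.4% lay above 0, or 36.6% with library size alone as the scale. The genotypes did not overlap, with KO lower, for 6 of the 33 genes, where this held for 9.38% of all genes, and for 19.9% in either direction. These were the 4 called genes, Acly and the elongase gene Elovl5.

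Scd1 stood at 203, 163, 180 and 175 CPM in the WT normoxia libraries and at 152, 130, 107 and 99.4 CPM in the KO libraries. All KO libraries lay below all WT libraries, and Scd1 fell by 31.8% (log2 fold change -0.55 ± 0.13 SE, adjusted p = 0.0242). Scd2, the more abundant paralog, stood at 1392, 1322, 1115 and 1281 CPM in WT and at 1099, 1068, 848 and 811 CPM in KO. WT replicate 3, the lowest WT library, still lay above the highest KO library, and Scd2 fell by 24.7% (-0.41 ± 0.12 SE, adjusted p = 0.0469). Acat2 stood at 51, 52.7, 47 and 50.9 CPM in WT and at 38.4, 45, 35.9 and 29.7 CPM in KO (-0.43 ± 0.12 SE, adjusted p = 0.0384). Its groups were separated by little, with KO replicate 2 the highest KO library. Cyp51 stood at 159, 167, 148 and 178 CPM in WT and at 129, 131, 133 and 136 CPM in KO (-0.30 ± 0.08 SE, adjusted p = 0.0318). The KO values of Cyp51 were tighter than the WT values, and the groups did not overlap.

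Of the 17 sterol enzymes, 2 fell, 0 rose and 15 had log2 fold changes below 0, where 47.4% of all tested genes lay above 0. Hmgcs1, which makes the HMG-CoA of the pathway, averaged 175 ± 12.5 CPM over WT and 157 ± 16.7 CPM over KO libraries (-0.16, adjusted p = 0.24), and Sqle, the squalene epoxidase gene, had 132 ± 10.5 and 110 ± 8.37 CPM (-0.26, adjusted p = 0.071). These differences did not pass. The regulators stayed close to 0 with none called: Srebf1 at -0.04 ± 0.10, Srebf2 at -0.03 ± 0.07, Scap at 0.03 ± 0.11, Insig1 at -0.14 ± 0.07 and Insig2 at 0.03 ± 0.11 on the log2 scale (SE). With library size alone as the scale, which shifted the median of all genes to -0.11, Scap and Insig2 turned to -0.05 and -0.07. Fasn, the fatty acid synthase gene, varied more between libraries than between genotypes, with a WT level of 406 ± 95.5 CPM and a KO level of 395 ± 69.9 CPM.

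The calls in normoxia were lost when any of several libraries was left out, while the log2 fold changes stayed below 0. With 1 library left out these ranged from -0.68 to -0.46 for Scd1 and from -0.49 to -0.33 for Scd2. For Acat2 the range was -0.54 to -0.33 and for Cyp51 -0.33 to -0.26. No member was called without WT replicate 1, WT replicate 4 or KO replicate 3, 1 was called without WT replicate 2, and 2 without KO replicate 1. Without WT replicate 3 and KO replicate 4 together, which stood apart in the principal components, 6 members were called, all lower. Granulocyte markers rose in the same KO libraries (10 of 12 called, median log2 fold change 0.76), as did mast cell and basophil markers (7 of 7). Dendritic cell markers (4 of 8 called, median 1.54) and eosinophil markers (4 of 7 called, median 1.40) rose in part, and 3 of 13 genes of the mitochondrial genome rose. Macrophage markers were mixed, with 3 of 9 called higher, 0 called lower and 3 with log2 fold changes below 0. Their sum was 871 to 1101 CPM in WT and 814 to 1003 CPM in KO. Proliferation markers did not pass (0 of 10 called, median -0.14). The part of these cell types in the falls was not tested.

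**Figure D2:**
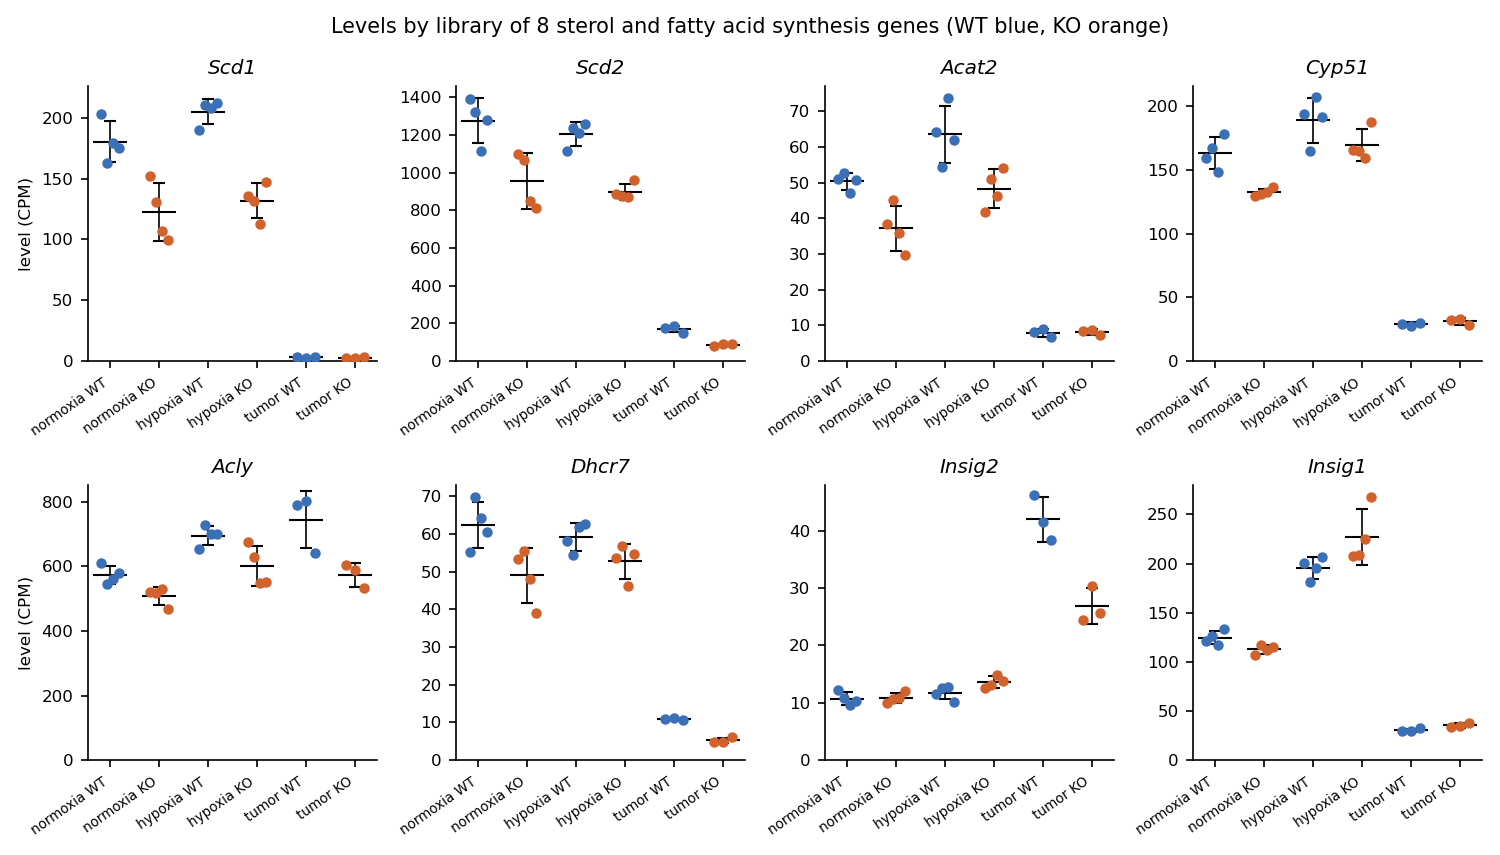
Level in CPM of 8 members in each of the 22 libraries, by group, with the axis starting at 0. Points are libraries (WT blue, KO orange), and black bars are the group mean ± SD. Scd2 is lower in KO in all 3 experiments, Scd1 in both cultures, and Dhcr7 and Insig2 in tumors, whereas Insig1 is higher in both hypoxia groups than in the normoxia groups.

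In hypoxia cultures Scd1 and Scd2 were again lower in KO. Of the 33 genes 8 fell and 3 rose, where 17.6% of 15018 tested genes fell and 17.4% rose. The median log2 fold change was -0.14, against -0.01 for all genes. The genotypes did not overlap for 7 genes with KO lower and 5 with KO higher, where 15.2% and 17.4% of all genes did so. With library size alone as the scale, 10 fell and 0 rose.

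Scd1 stood at 190, 210, 208 and 212 CPM in WT and at 135, 132, 113 and 147 CPM in KO hypoxia libraries. Its groups lay far apart, and Scd1 fell by 35.9% (log2 fold change -0.64 ± 0.08 SE, adjusted p = 2.08e-04). Scd2 stood at 1114, 1239, 1212 and 1257 CPM in WT and at 885, 878, 870 and 960 CPM in KO, and fell by 25.7% (-0.43 ± 0.07 SE, adjusted p = 6.45e-04). KO replicate 4 stood above the other 3 KO libraries and still below all WT libraries. Both genes kept their call in each of the 8 fits that leave out 1 library, with a highest adjusted p of 0.0014 for Scd1 and 0.0038 for Scd2. All 7 desaturases and elongases had log2 fold changes below 0, where 48.1% of all tested genes lay above 0. Of the 7, 4 fell, the others being the elongase gene Elovl6 (-0.32, adjusted p = 0.048) and Fads1, a desaturase of polyunsaturated fatty acids (-0.19, adjusted p = 0.025). Elovl6 lost its call in 6 of the 8 fits that leave out a library and Fads1 in 3, with highest adjusted p of 0.147 and 0.075. Both also lost it with the replicate block and with all 22 libraries in one fit, and Fads1 without the filter. Over these other settings the highest adjusted p was 0.0755 for Elovl6 and 0.136 for Fads1.

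Among the 17 sterol enzymes 3 fell and 2 rose in hypoxia. Acat2 stood at 64.1, 54.4, 73.7 and 61.9 CPM in WT and at 41.8, 51.1, 46.3 and 54.2 CPM in KO (-0.40 ± 0.10 SE, adjusted p = 0.011). KO replicate 4 was the highest KO library and WT replicate 2 the lowest WT library. Ebp, a sterol isomerase gene, stood at 52.3, 46.4, 54 and 49.6 CPM in WT and at 41.5, 44.1, 40.5 and 40.6 CPM in KO (-0.28 ± 0.06 SE, adjusted p = 0.0062). Sqle stood at 137, 128, 156 and 132 CPM in WT and at 108, 113, 111 and 123 CPM in KO (-0.28 ± 0.07 SE, adjusted p = 0.013). In all 3 the genotypes did not overlap, and the calls held in each of the 8 fits without 1 library.

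The rises were those of Hsd17b7, a sterol ketone reductase gene (0.36 ± 0.11 SE, adjusted p = 0.028), Fdps, which makes farnesyl diphosphate (0.31 ± 0.11 SE, adjusted p = 0.047), and Stard4 (0.26 ± 0.08 SE, adjusted p = 0.027). Stard4 stood at 113, 109, 118 and 121 CPM in WT and at 125, 133, 134 and 159 CPM in KO. Hsd17b7 stood at 59.9, 46.2, 62.8 and 62.2 CPM in WT and at 67.6, 73.2, 67.4 and 88.8 CPM in KO. Fdps stood at 53.8, 38.1, 49.7 and 52.9 CPM in WT and at 54.7, 64.9, 55.1 and 67.1 CPM in KO. Its call was lost in 6 of the 8 fits without 1 library, with a highest adjusted p of 0.121. It was also lost with library size alone, the replicate block and all 22 libraries in one fit. Stard4 and Hsd17b7 lost theirs in 4 of 8 and with library size alone. The exon bases that Fdps shares with Gm43738 concern these counts too. KO replicate 4 was the highest KO library and WT replicate 2 the lowest WT library for Hsd17b7 and Stard4, and the same held across the set: KO replicate 4 was the highest of its group for 21 of 33 genes and WT replicate 2 the lowest of its group for 24. Without KO replicate 4, 10 genes fell and 0 rose, without WT replicate 2, 11 fell and 0 rose, and without WT replicate 1, 7 fell and 0 rose. The total was 6 without WT replicate 3 and 7 without WT replicate 4 or KO replicate 2.

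Acly, the enzyme gene that releases acetyl-CoA from citrate, fell in hypoxia (653, 726, 699 and 700 CPM in WT, 674, 628, 547 and 552 CPM in KO, -0.22 ± 0.08 SE, adjusted p = 0.045), although KO replicate 1 lay above WT replicate 1. Its call was lost in 6 of the 8 fits without 1 library, with an adjusted p of 0.125 without KO replicate 3. Acaca and Fasn did not pass (-0.24 and -0.15, adjusted p = 0.056 and 0.36). None of Srebf1 (-0.08), Srebf2 (-0.02), Scap (-0.04), Insig1 (0.21, adjusted p = 0.08) and Insig2 (0.21) was called, and neither was Hmgcs1 (0.08). Granulocyte markers rose in 11 of 12 cases in these KO libraries (median 0.92), and all 9 eosinophil markers and all 8 mast cell and basophil markers rose. All 4 measured erythroid markers fell (median -2.73). Of 10 dendritic cell markers 1 rose and 1 fell, and 9 had log2 fold changes below 0. Of 9 macrophage markers 1 fell and 0 rose, and 0 of 10 proliferation markers passed (median -0.19). Whether these cells carry the changes was not tested.

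In tumors Scd2, Dhcr7, Insig2 and Acly were lower in KO. Of the 33 genes 4 fell and 0 rose, where 3.04% of 14370 tested genes fell and 3.28% rose, or 6.32% in all. The median log2 fold change was -0.04, against 0.01 for all genes, and the genotypes did not overlap for 5 genes with KO lower (16.5% of all genes) and 3 with KO higher (10.3%). Scd2 stood at 176, 185 and 151 CPM in WT and at 80.7, 89.6 and 91.2 CPM in KO, and fell by 47.6% (-0.93 ± 0.09 SE, adjusted p = 4.07e-05). Dhcr7, whose enzyme takes the closing step to cholesterol, stood at 10.8, 11.1 and 10.6 CPM in WT and at 4.89, 4.88 and 6.05 CPM in KO, and fell by 50.3% (-1.01 ± 0.15 SE, adjusted p = 0.0014). Insig2 stood at 46.1, 41.5 and 38.3 CPM in WT and at 24.4, 30.3 and 25.7 CPM in KO, and fell by 34.6% (-0.61 ± 0.10 SE, adjusted p = 0.0038). In these 3 genes the groups were far apart, and the calls held in each of the 6 fits without 1 library.

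Acly also fell in tumors (789, 801 and 642 CPM in WT, 602, 587 and 532 CPM in KO, -0.34 ± 0.09 SE, adjusted p = 0.035), with WT replicate 3 the lowest WT library. It lost its call in 5 of the 6 fits without 1 library, with a highest adjusted p of 0.138 without KO replicate 2. Scd1 was scarce in tumors, at 3.5, 2.76 and 3.65 CPM in WT and 2.28, 2.42 and 3.1 CPM in KO, and its difference did not pass (-0.31 ± 0.23 SE, adjusted p = 0.50). Insig1, Stard4 and Fads2 lay higher in all KO libraries than in all WT libraries without passing (0.25, 0.41 and 0.40, adjusted p = 0.15, 0.11 and 0.19). Srebf1, Srebf2 and Scap had log2 fold changes of -0.09, -0.01 and -0.13, and Hmgcs1, Sqle and Fasn of 0.03, -0.10 and 0.07, with none called. Macrophage markers did not pass (0 of 9, median -0.18), 5 of 9 measured dendritic cell markers rose (median 0.80), and 4 of 8 T and NK cell markers fell (median -1.42). The part of these cells in the falls was not tested.

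**Figure D3:**
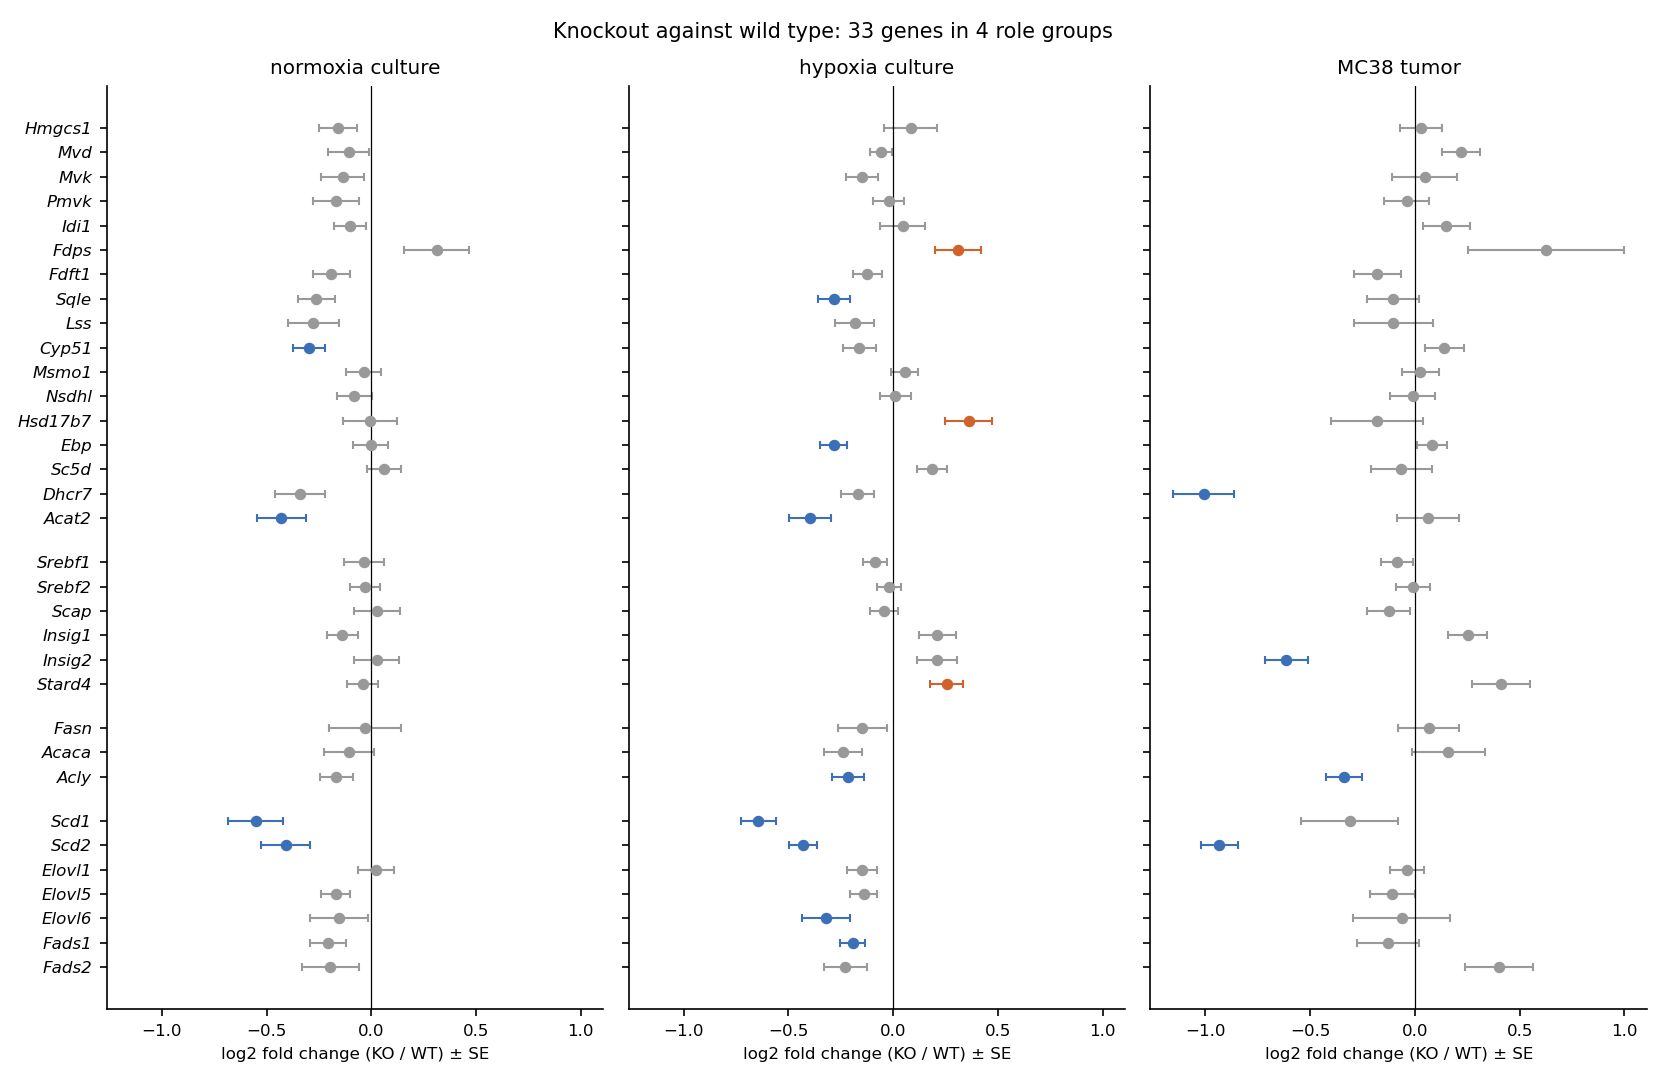
Log2 fold change of KO against WT with its standard error for the 33 genes in 3 experiments, with genes ordered by role. Blue points passed the test with KO lower, orange points with KO higher, and grey points did not pass. Scd2 is blue in all 3 panels, and Srebf1, Srebf2 and Scap are grey in all 3.

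Across the 3 KO comparisons, which share no libraries, 14 genes were called at least once and 19 in none. Of all tested genes, 11.3% were called in normoxia, 34.9% in hypoxia and 6.32% in tumors. The share of all genes called at least once was not counted, so the 14 cannot be set against it. Scd2 was lower in all 3. Scd1 and Acat2 were lower in both culture conditions, and Acly in hypoxia and tumors. Summed over the 7 desaturases and elongases, of which Scd2 holds the most counts, the level was 1903 to 2231 CPM in WT and 1424 to 1869 CPM in KO normoxia libraries. It was 1940 to 2092 against 1470 to 1658 CPM in hypoxia and 320 to 374 against 243 to 263 CPM in tumors, so that the genotypes did not overlap in any experiment. The sum over the 17 sterol enzymes was 1547 to 1697 CPM in WT and 1372 to 1542 CPM in KO normoxia libraries. It overlapped in hypoxia (1438 to 1673 and 1452 to 1724 CPM) and in tumors (313.6 to 314.4 and 300.4 to 318.5 CPM). The sum over Acly, Acaca and Fasn overlapped in normoxia (912 to 1161 CPM for WT, 876 to 1090 CPM for KO). The genotypes were apart in hypoxia (1038 to 1168 and 865 to 1020 CPM) and in tumors (667 to 822 and 561 to 627 CPM). In tumors Acly held most of this sum, at a mean of 744 CPM in WT and 574 CPM in KO. Acaca and Fasn had log2 fold changes of 0.16 and 0.07 there, with neither called. The Acly call was lost in 5 of the 6 tumor fits without 1 library.

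**Figure D4:**
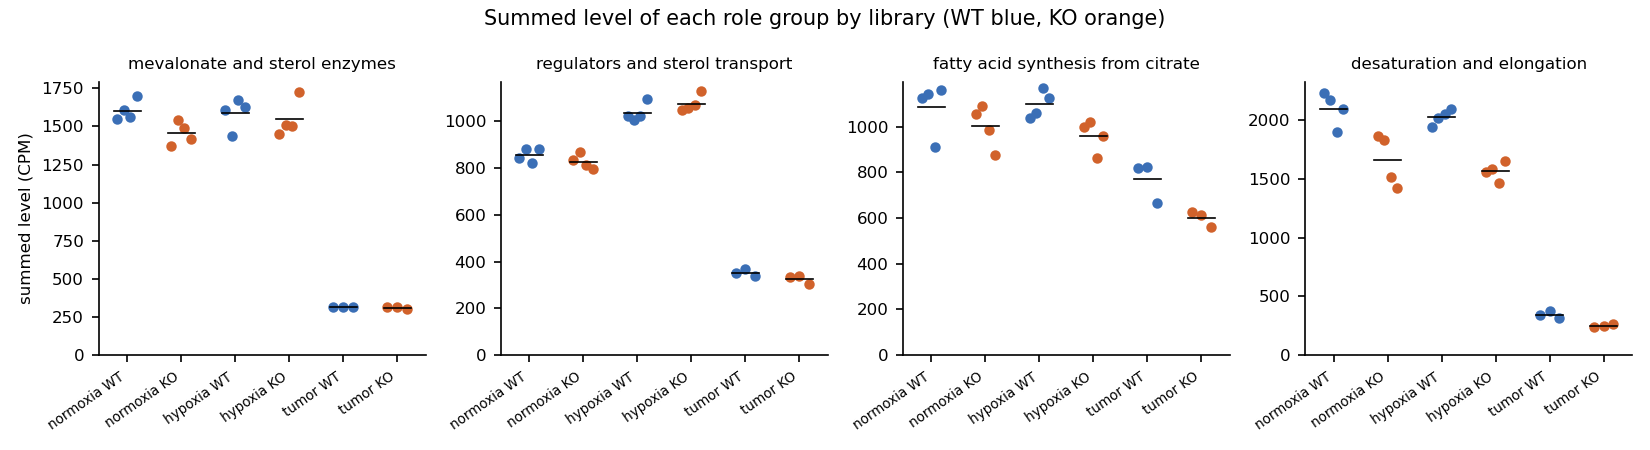
Summed level in CPM of each of the 4 role groups in each of the 22 libraries, with the axis starting at 0, WT in blue and KO in orange. Black lines are group means. The sum of the desaturases and elongases separates the genotypes in all 3 experiments. That of the citrate group does so in hypoxia and tumors, and that of the sterol enzymes narrowly in normoxia. The sum of the regulators overlaps in all 3. In tumors most of the citrate group sum is Acly, and Scd2 is the only called gene among the desaturases and elongases.

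The size of the KO effect was then compared between hypoxia and normoxia over the 16 culture libraries, which also enter the comparisons above. With edgeR, 0 of 33 genes differed at an adjusted p under 0.05, where 0.476% of 15325 genes did, and DESeq2 also called 0 members. At an unadjusted p under 0.05 there were 3 members, where 8.01% of all genes passed: Insig1 (difference 0.35 ± 0.11 SE), Stard4 (0.30 ± 0.11) and Ebp (-0.28 ± 0.10), with adjusted p of 0.28, 0.37 and 0.39. For Scd1 the difference was -0.09 ± 0.16 and for Scd2 -0.02 ± 0.13. A common shift between the culture tables cancels in this difference.

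Hypoxia and normoxia cultures were also compared within each genotype. Oxygen cannot be told apart here from the length of culture or from the table, and these comparisons use the same libraries as those above. The clearest difference was in Insig1, whose protein holds SCAP and the SREBPs in the endoplasmic reticulum. Insig1 stood at 122, 126, 117 and 133 CPM in WT normoxia and at 201, 181, 195 and 207 CPM in WT hypoxia, a fold of 1.57 (log2 0.65 ± 0.08 SE, adjusted p = 2.66e-06). In KO cultures it stood at 208, 209, 225 and 268 CPM in hypoxia against 107, 117, 112 and 115 CPM in normoxia, a fold of 2.01 (1.01 ± 0.08 SE, adjusted p = 1.13e-08). All hypoxia libraries lay far above all normoxia libraries of their genotype, and both calls held under every alternative run.

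In WT cultures 7 of 33 genes were higher in hypoxia and 5 lower, where 26.8% and 24.9% of 15325 genes were, or 51.8% in all. In KO cultures 11 were higher and 6 lower, where 26.3% and 25.5% were, or 51.8% in all; without normoxia KO replicate 1, 11 KO calls were made in all. The same direction was called in both genotypes for 5 higher and 3 lower genes, and for 0 was it opposite. The share of all genes called in both genotypes was not counted. With library size alone the split was 1 higher and 8 lower in WT and 3 and 7 in KO, a scale on which the median gene shifted by -0.15 and -0.11.

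Of the 6 regulators and sterol transport genes, 4 were higher in each genotype and 0 lower. Srebf2, which encodes the regulator of the sterol genes, stood at 391, 425, 399 and 422 CPM in WT normoxia and at 474, 481, 471 and 513 CPM in WT hypoxia (0.25 ± 0.06 SE, adjusted p = 0.0017). Its KO values were 400 ± 8.62 and 479 ± 7.23 CPM (0.26 ± 0.06 SE, adjusted p = 0.0013). Scap (0.27) and Srebf1 (0.22) passed in WT and not in KO (0.20 and 0.17, adjusted p = 0.0662 and 0.063), and the difference between genotypes did not pass (-0.07 ± 0.13 and -0.05 ± 0.11 SE). Cyp51 (0.22 in WT, 0.35 in KO), Acat2 (0.34 and 0.37) and Acly (0.28 and 0.23) rose in both. Stard4 (0.28), Hsd17b7 (0.37), Fdft1 (0.24), Msmo1 (0.23), Nsdhl (0.23) and Insig2 (0.32) rose in KO and did not pass in WT. All of the genes named here as higher lost their call with library size alone in at least 1 genotype, apart from Insig1. In WT, Cyp51 lost its call in 5 of the 8 fits without 1 library, Srebf1 and Scap in 2 and Acat2 in 1. Cyp51 and Srebf1 also lost the WT call without the filter, and Cyp51 without normoxia WT replicate 3 and KO replicate 4. In KO, Fdft1, Hsd17b7 and Nsdhl lost theirs in 2 of 8 fits, and Acly, Insig2 and Msmo1 in 1.

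The genes that were lower with hypoxia belong to different steps. Mvd, the mevalonate diphosphate decarboxylase gene, stood at 132, 143, 163 and 142 CPM in WT normoxia and at 111, 111, 107 and 109 CPM in WT hypoxia (-0.40 ± 0.08 SE, adjusted p = 2.49e-04), and it fell in KO as well (-0.35 ± 0.08 SE). Fads1 fell in both (-0.30 and -0.28), as did Acaca, the acetyl-CoA carboxylase gene (-0.28 and -0.41). Sc5d (-0.27) and Pmvk (-0.26) fell in WT, and Ebp (-0.42), Fasn (-0.47) and Elovl1 (-0.21) fell in KO. Acaca lost its call in WT in 6 of the 8 fits without 1 library, with a highest adjusted p of 0.144. In KO, Elovl1 lost it in 6 of 8 and Fasn in 4 of 8, with highest adjusted p of 0.0958 and 0.0822, and both lost it without the filter. Pmvk lost it in WT in 4 of 8, with a highest adjusted p of 0.0623. Hmgcs1 (-0.14 in WT, 0.10 in KO), Sqle (0.06 and 0.04), Scd1 (0.19 and 0.10) and Scd2 (-0.08 and -0.10) did not pass in either genotype. Proliferation markers moved with these comparisons (9 of 10 called lower in WT and 10 of 10 in KO, median -0.37 in both), as did eosinophil markers (8 and 9 of 9 called higher) and mast cell and basophil markers (7 and 8 of 8 called higher). Dendritic cell markers were higher in 8 and 6 of 10 cases (median 3.57 in WT), and erythroid markers in 4 of 4 in both genotypes (median 9.46 and 6.62). Of 12 granulocyte markers 7 were lower and 1 higher in WT, and 4 and 2 in KO, and of 13 mitochondrial genes 7 were higher and 4 lower in WT, and 3 and 5 in KO. The part of these lists in the differences was not tested.

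**Figure D5:**
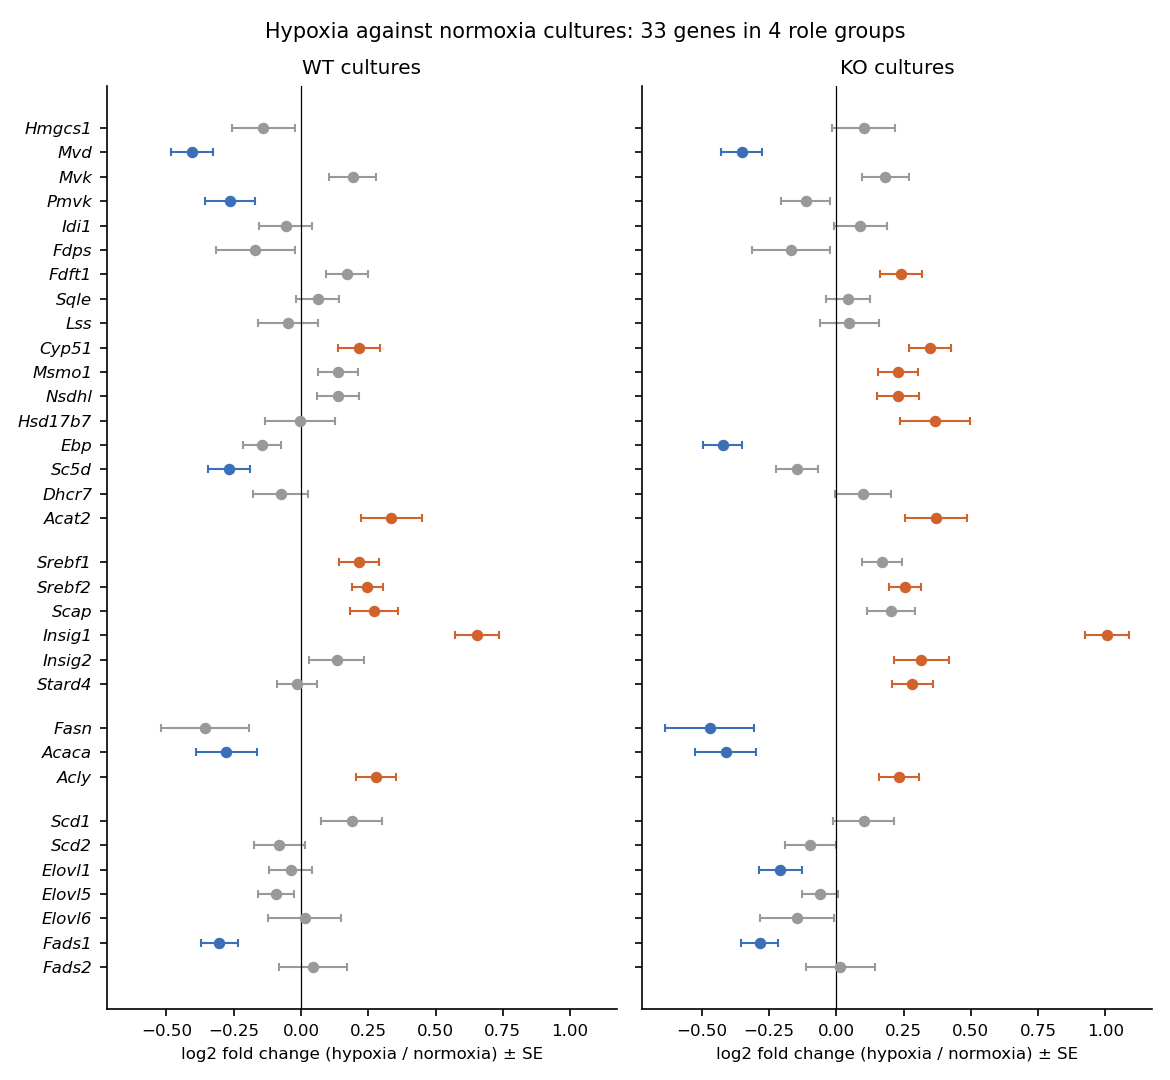
Log2 fold change of hypoxia against normoxia cultures with its standard error for the 33 genes, in WT and in KO cultures, with genes ordered by role. Orange points passed the test with hypoxia higher, blue points with hypoxia lower, and grey points did not pass. Insig1 lies farthest to the right in both panels.

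Genes next to these pathways were read from 4 further lists. Of 5 other sterol synthesis enzymes, Lbr, a sterol reductase gene that also anchors chromatin to the nuclear envelope, rose in normoxia (0.41 ± 0.09 SE, adjusted p = 0.014) and hypoxia (0.60 ± 0.10 SE, adjusted p = 8.7e-04). Tm7sf2, which encodes a reductase for the same step, rose in hypoxia (0.29, adjusted p = 0.047), and 0 of the 5 passed in tumors. Over all tested genes 7.13% rose in normoxia and 17.4% in hypoxia, and 6.32% were called in tumors. With hypoxia against normoxia, Tm7sf2 was lower in WT cultures (-0.31 ± 0.11 SE, adjusted p = 0.026) and was not called in KO. Among 7 genes of SREBP processing, only Mbtps2, a protease gene that releases SREBP, was called with hypoxia, higher in WT and KO cultures (0.33 and 0.45). Of the 7, 5 had log2 fold changes below 0 in each genotype, and 51.8% of all genes were called in either direction.

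Genes of cholesterol efflux, storage and the sterol-sensing LXR receptors fell in 4 of 17 measured cases in normoxia and 7 of 18 in hypoxia, with 0 higher in either, while 2 of 18 rose and 1 fell in tumors. Over all tested genes 4.17% fell in normoxia and 17.6% in hypoxia, and 3.28% rose and 3.04% fell in tumors. Nr1h3, which encodes LXR alpha, fell in normoxia and hypoxia (-1.02 ± 0.22 and -1.14 ± 0.17 SE) and rose in tumors (0.74 ± 0.09 SE). Lipa, the lysosomal lipase gene that frees cholesterol, fell in both cultures (-0.44 and -0.59), as did Lpcat3 (-0.32 and -0.34), a phospholipid remodelling gene, and the exporter gene Abcg1 (-0.37 and -0.93). In tumors Cyp27a1, a sterol hydroxylase gene, rose (1.02 ± 0.10 SE) and Ch25h, another sterol hydroxylase gene, fell (-1.01 ± 0.12 SE).

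Of 19 further genes of fatty acid and glycerolipid synthesis, 3 fell and 1 rose in normoxia, 6 fell and 1 rose in hypoxia, each of 18 measured, and 1 of 16 fell in tumors. Over all genes 11.3%, 34.9% and 6.32% were called in these comparisons in either direction. Me1, the malic enzyme gene that supplies NADPH, fell in both cultures (-0.90 ± 0.22 and -0.96 ± 0.17 SE), as did Slc25a1, the mitochondrial citrate carrier gene (-0.38 and -0.42), and Hsd17b12, of the elongation cycle (-0.45 and -0.57). Acsl3 fell in hypoxia (-0.60) and Acsl4 in tumors (-0.40), both of which activate fatty acids. Elovl7 rose in normoxia (0.40) and Acss2, which makes acetyl-CoA from acetate, in hypoxia (0.41).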

How the data were processed

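RNA of 22 libraries was sequenced after SMART-Seq amplification, per the labels' protocols. Subread, featureCounts and DESeq2 (no versions) and the build GRCm38.p6 are named per the submitters' processing notes. The authors deposited raw counts per gene for each experiment, and these counts were used as deposited. Their normalized tables were not used. Whether counting used strand is not given in the sources used here, so reads of overlapping and antisense genes, and of the paralogs Scd1 and Scd2, may be shared. Columns of the VISTA knockout were matched to their group by their names, some of them by elimination.

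Each experiment was fitted with edgeR 4.0.16 in R 4.3.3 (filterByExpr, TMM, robust quasi-likelihood test of KO against WT), with Benjamini-Hochberg adjustment over all tested genes and a threshold of 0.05. The 16 culture libraries were fitted together for the difference of KO effects and for hypoxia against normoxia. Printed CPM and RPKM share 1 TMM scale over 22 libraries, which shifted KO against WT by -0.42%, 0.29% and -2.39% relative to the separate fits. The procedure was tested on simulated data. Alternatives were RLE factors, library size alone, no filter, DESeq2 1.42.0, each library left out, a replicate block and all 22 libraries in one fit. Leaving out normoxia WT replicate 3 and KO replicate 4 together was chosen after seeing the data.

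The members and gene lists were chosen with earlier results of these data known. Named in full were Srebf1, Srebf2, Scap, Insig1, Insig2, Hmgcs1, Sqle, Fasn, Scd1 and Scd2, up to 6 called members per direction and comparison with the smallest p, and up to 3 genes per direction of each further list. Other members and genes named in the text were chosen after their values were seen. A result of the list on SREBP processing is not reported here.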

Additional observations from a re-analysis of the deposited data

Results flagged for a closer look

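Among 132 groups of 4 libraries, 1 for each member and culture group, 4 had a library far from the other 3 by Dixon's criterion, where chance gives about 1 in 20. Acaca stood at 77.9 CPM in normoxia WT replicate 3 and at 112 to 118 CPM in the other 3 WT libraries. Fads1 stood at 107.5 CPM in normoxia WT replicate 4 and at 115.3 to 115.7 CPM in the others. Srebf1 stood at 209.8 CPM in hypoxia WT replicate 4 and at 190.0 to 191.7 CPM in the others. Scd2 stood at 960 CPM in hypoxia KO replicate 4 and at 870 to 885 CPM in the others, all below the WT libraries.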

How the results depend on the processing

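Of the values of named members, 444 kept their direction and side of the threshold under settings other than leaving out a library, 13 reversed, 11 passed newly and 19 no longer passed. With 1 library left out these numbers were 626, 36, 7 and 67. The causes were not tested. Without 1 library, the normoxia comparison called 0 to 5 members, the hypoxia comparison 6 to 11, and hypoxia against normoxia in KO 11 to 17. With library size alone the last was 10. Same-numbered libraries did not deviate together throughout (correlations 0.0371, 0.375, 0.116 and -0.0566 in normoxia, -0.0942, -0.115, -0.159 and 0.0187 in hypoxia, 0.189, 0.0797 and 0.218 in tumors), so the numbers were not taken as pairs. With the replicate block 5 members were called in normoxia, 7 in hypoxia, 5 in tumors and 0 for the difference. With library size alone, Scap and Insig2 in normoxia were -0.0548 and -0.0650, the differences of Sqle and Scd2 were 0.0243 and 0.0209, Insig2 and Sqle with hypoxia in WT were -0.00710 and -0.0756, and Sqle and Scd1 in KO were -0.0513 and -0.00121. Without a filter the difference of Scd2 was 0.00249. With all 22 libraries Hmgcs1 in tumors was -0.00709. Without normoxia WT replicate 3 and KO replicate 4, Srebf1 and Insig2 were 0.0364 and -0.0696 in normoxia, and Sqle with hypoxia in KO was -0.00180.

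The members that crossed 0 when a library was left out were called in neither direction in the comparison concerned. In normoxia the ranges were -0.0928 to 0.0421 for Srebf1, -0.0347 to 0.0853 for Scap, -0.0212 to 0.0822 for Insig2 and -0.175 to 0.0734 for Fasn. In hypoxia they were -0.0364 to 0.00712 for Srebf2 and -0.0468 to 0.179 for Hmgcs1. In tumors they were -0.0731 to 0.0620 for Srebf2, -0.0590 to 0.0722 for Hmgcs1 and -0.0628 to 0.238 for Fasn. For the difference they were -0.115 to 0.00611 for Srebf1, -0.00698 to 0.0438 for Srebf2, -0.0631 to 0.0449 for Sqle, -0.209 to 0.0332 for Fasn, -0.171 to 0.0352 for Scd1 and -0.0851 to 0.0566 for Scd2. With hypoxia in KO they were -0.0226 to 0.202 for Hmgcs1 and -0.000753 to 0.0823 for Sqle. Depth limits Fdps most, in the tumor libraries.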

Other observations

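Of 17 measured genes of cholesterol efflux, storage and LXR signalling, 4 were higher and 2 lower with hypoxia in each genotype, where 51.8% of all genes were called in either direction, and of 18 measured further fatty acid and glycerolipid genes 5 were higher and 6 lower in WT and 6 and 6 in KO. Plin2, which coats lipid droplets, was higher with hypoxia in WT and KO cultures (log2 fold change 0.73 ± 0.08 and 0.68 ± 0.08 SE), as were Scarb1, a lipoprotein receptor gene (0.46 and 0.35), and Lpin1, of glycerolipid synthesis (0.69 and 0.84). Nr1h3 was lower in both (-1.34 ± 0.18 and -1.46 ± 0.21 SE), as were Lipa (-0.36 and -0.51), Me1 (-0.96 and -1.01) and Mid1ip1, an activator of acetyl-CoA carboxylase (-0.68 and -0.63). Oxygen, culture time and table cannot be told apart in these values.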
